A study of Mus musculus with 23 samples.

Results

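The Polycomb mark H3K27me3 was compared between the progenitor-rich cells of the early cortex and the Ebf2-EGFP+ neurons of a later stage. The members were the peaks of both deposited lists, that is 48962 peaks of Ebf2-EGFP- cells at E11.5 and 6721 peaks of Ebf2-EGFP+ cells at E13.5, out of 230604 peaks in all 8 lists of the series. A protein-coding gene was taken as marked if any peak came within 5 kb of its transcription start site (TSS). By this rule 11083 of 21938 TSS were marked in at least 1 of the 2 lists. Each TSS was then placed in both lists, in progenitors only, at E13.5 only or in neither.

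The cells came from the cerebral cortex of embryos that carried the transgene Tg(Ebf2-EGFP)FB58Gsat, a GENSAT line in which EGFP follows Ebf2. Cells with and without EGFP were separated by FACS. Per the study, the EGFP- cells at E11.5 are mostly neural stem and progenitor cells. The EGFP+ cells at E13.5 are early neurons in which EGFP fades in the subplate and stays in Cajal-Retzius (CR) cells, the Reelin-secreting cells of layer 1. The 2 groups therefore differ in stage and in cell type at once, and these cannot be told apart. Each group had 2 ChIP libraries, 4 of the 23 libraries of the series, and 1 deposited list, so there was no replicate list and no test between groups, and the read depth is unknown. Intervals in brackets are Wilson 95% intervals. They treat peaks or genes as independent draws and hold no error between libraries, and genes that lie close together can share peaks.

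H3K27me3 is written by Polycomb repressive complex 2, whose core holds the methyltransferase Ezh1 or Ezh2 with Eed and Suz12, and is read by the Cbx proteins of Polycomb repressive complex 1. In embryonic cells it is best known at CpG-rich promoters of genes for transcription factors and signals of other lineages, the homeodomain genes among them. The same lysine can instead carry acetylation, H3K27ac, the mark of active promoters and enhancers.

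The E13.5 list was far shorter than the progenitor list, covering 1111 kb against 11038 kb, and a list of the same mark from E11.5 Ebf2-EGFP+ cells, with 6387 peaks, was nearly as short as the E13.5 list. The progenitor label was checked against 12 neural progenitor genes. H3K27me3 of the progenitor list lay at 9 of their TSS, among them Sox2, Nes, Vim, Notch1 and Hes1, and H3K27ac of the same cells lay at 0 of them in a list of 1386 peaks. It also lay at 9 of 12 reference genes such as Gapdh and Hprt. The progenitor H3K27me3 list was thus not limited to genes that are silent in progenitors, which bears on every count of TSS marked in progenitors only. The E13.5 H3K27me3 list held 0 of the 12 reference genes and 2 of the 12 progenitor genes, Emx2 and Pax6. Of red cell genes, 0 of 9 were marked in either list, and of vessel genes 5 of 9 were marked in progenitors and 0 at E13.5. Of all TSS, 48.2% were marked in the progenitor list and 9.31% in the E13.5 list. The H3K27ac list of E11.5 Ebf2-EGFP- cells, from 1 library, marked 4.17%. The Wilson intervals of these marker counts hold those shares, except for red cell genes in progenitors (0 to 29.9%).

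Sites that both lists marked are shown first, since they show the overlap at the level of bases. The E13.5 peaks are printed from the plus strand of GRCm38 (mm10), with capitals for the bases that also lay inside a progenitor peak. They lie in coding exons or introns within 5 kb of the TSS of 6 genes of homeodomain families. A site is labelled coding exon if any of its bases lie in coding sequence, so the rest of it can be intron. The Hoxb2 site is centred 4314 bp upstream of the Hoxb2 TSS, so its coding exon belongs to another gene. Six2, Emx2 and Nkx2-1 act in kidney, cortical and ventral forebrain or thyroid development, Hoxb2 in the hindbrain, Pax2 at the midbrain border and in the kidney, and Irx3 in the neural tube.
Six2, chr17:85687515-85687692, coding exon: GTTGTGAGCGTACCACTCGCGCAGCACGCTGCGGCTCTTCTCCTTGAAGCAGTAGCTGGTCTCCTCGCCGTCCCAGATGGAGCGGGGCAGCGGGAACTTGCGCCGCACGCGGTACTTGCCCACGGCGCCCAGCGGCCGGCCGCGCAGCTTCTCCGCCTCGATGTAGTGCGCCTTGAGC
Nkx2-1, chr12:56534673-56534869, coding exon: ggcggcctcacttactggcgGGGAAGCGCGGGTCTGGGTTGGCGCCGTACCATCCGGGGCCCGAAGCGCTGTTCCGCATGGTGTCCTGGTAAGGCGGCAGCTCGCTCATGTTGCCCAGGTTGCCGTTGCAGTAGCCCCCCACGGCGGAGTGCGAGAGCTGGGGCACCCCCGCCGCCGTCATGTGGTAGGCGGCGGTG
Emx2, chr19:59459577-59459754, coding exon: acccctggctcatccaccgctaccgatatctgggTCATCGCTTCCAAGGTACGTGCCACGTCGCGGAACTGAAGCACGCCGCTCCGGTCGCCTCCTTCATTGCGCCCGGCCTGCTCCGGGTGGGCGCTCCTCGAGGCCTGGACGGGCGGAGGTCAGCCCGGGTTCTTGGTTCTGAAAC
Hoxb2, chr11:96346096-96346326, in a coding exon upstream of the TSS: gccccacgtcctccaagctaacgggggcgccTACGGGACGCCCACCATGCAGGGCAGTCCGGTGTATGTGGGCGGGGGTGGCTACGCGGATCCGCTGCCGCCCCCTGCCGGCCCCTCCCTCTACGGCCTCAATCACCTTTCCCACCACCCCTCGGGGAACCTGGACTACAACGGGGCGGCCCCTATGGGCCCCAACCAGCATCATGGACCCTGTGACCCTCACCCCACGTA
Pax2, chr19:44759730-44759897, intron: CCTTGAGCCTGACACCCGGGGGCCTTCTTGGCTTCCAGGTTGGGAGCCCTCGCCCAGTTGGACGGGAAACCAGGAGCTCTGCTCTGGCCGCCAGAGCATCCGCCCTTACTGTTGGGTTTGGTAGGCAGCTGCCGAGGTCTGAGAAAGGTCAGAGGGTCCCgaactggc
Irx3, chr8:91800527-91800791, coding exon: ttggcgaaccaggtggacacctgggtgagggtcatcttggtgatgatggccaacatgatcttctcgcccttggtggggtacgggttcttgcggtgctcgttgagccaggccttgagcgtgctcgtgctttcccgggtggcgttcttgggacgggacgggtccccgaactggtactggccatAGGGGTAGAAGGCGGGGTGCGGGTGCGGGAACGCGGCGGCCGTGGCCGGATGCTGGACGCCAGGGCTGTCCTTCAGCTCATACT
The Six2 peak lay wholly inside a progenitor peak of 338 bp, with 178 of 178 bases shared. The shared part was 177 of 197 bases at Nkx2-1, 144 of 178 at Emx2, 200 of 231 at Hoxb2, 160 of 168 at Pax2 and 84 of 265 at Irx3. These sites held 22 CpG dinucleotides at Six2, 21 each at Nkx2-1 and Irx3, 19 at Emx2, 17 at Hoxb2 and 7 at Pax2.

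Sites of a single list are shown for contrast, with every CpG in capitals. Pax6, a factor of cortical progenitors, and Dbx1, a homeodomain factor of progenitor zones that give rise to some CR cells, had H3K27me3 at E13.5 only. Sox2, which keeps neural progenitors undifferentiated, and Lhx5, a LIM homeodomain factor of the cortical hem and CR cells, had it in progenitors only.
Pax6, E13.5 list, chr2:105667350-105667472, intron of an overlapping transcript: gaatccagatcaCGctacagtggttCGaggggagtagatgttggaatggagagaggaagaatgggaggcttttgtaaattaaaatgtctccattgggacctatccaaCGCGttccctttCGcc
Dbx1, E13.5 list, chr7:49633447-49633692, coding exon: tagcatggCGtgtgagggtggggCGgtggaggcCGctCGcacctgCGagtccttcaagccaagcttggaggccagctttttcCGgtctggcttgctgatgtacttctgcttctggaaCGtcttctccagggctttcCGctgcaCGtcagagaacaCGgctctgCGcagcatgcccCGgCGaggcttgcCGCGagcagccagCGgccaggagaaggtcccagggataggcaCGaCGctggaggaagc
Sox2, progenitor list, chr3:34649373-34649657, intron of an overlapping transcript: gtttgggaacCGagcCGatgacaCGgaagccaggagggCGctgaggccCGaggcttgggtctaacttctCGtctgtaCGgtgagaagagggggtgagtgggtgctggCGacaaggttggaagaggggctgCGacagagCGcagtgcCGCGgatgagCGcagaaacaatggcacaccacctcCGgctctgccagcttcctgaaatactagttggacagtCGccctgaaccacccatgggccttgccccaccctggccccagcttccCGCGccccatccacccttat
Lhx5, progenitor list, chr5:120430865-120431119, intron of an overlapping transcript: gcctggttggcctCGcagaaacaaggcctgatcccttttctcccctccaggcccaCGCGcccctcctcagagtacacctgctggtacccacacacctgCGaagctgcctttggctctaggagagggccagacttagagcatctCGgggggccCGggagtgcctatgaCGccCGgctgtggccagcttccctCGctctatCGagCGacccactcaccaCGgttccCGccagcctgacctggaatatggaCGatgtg
The Pax6 site held 5 CpG in 123 bases, and the Dbx1 site 18 in 246. The Sox2 site held 17 in 285 bases, and the Lhx5 site 14 in 255.

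Few single sites were common to the lists. Of the 6721 E13.5 peaks, 1430 overlapped a progenitor peak by at least 1 bp (21.3%, 20.3 to 22.3), and of the 48962 progenitor peaks, 1406 overlapped an E13.5 peak (2.87%, 2.73 to 3.02). Another 17.3% of the 5291 E13.5 peaks without overlap lay within 1 kb of a progenitor peak, and 43.1% within 5 kb. Of all E13.5 peaks, 2.53% overlapped the H3K27me3 list of E11.5 Ebf2-EGFP+ cells (6387 peaks) and 1.77% that of E15.5 (1429 peaks). List length limits all these shares. With every 7th progenitor peak kept, 6995 in all, 3.01% of E13.5 peaks overlapped one. Shared E13.5 peaks were closer to genes than the others. Their centre lay within 1 kb of a TSS for 34.1% of them against 12.2% of the E13.5-only peaks, and the median distance to a TSS was 5064 bp against 18807 bp. They were also richer in CpG, with a median observed over expected ratio of 0.656 against 0.281, and richer in GC, with 65.0% against 57.0%. Their median width was 166 bp against 142 bp.

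The share in common depended on position and on width. Of the E13.5 peaks centred within 1 kb of a TSS, 43.1% (40.2 to 46.0) overlapped a progenitor peak. The share was 25.1% (22.3 to 28.0) from 1 to 5 kb, 15.3% from 5 to 50 kb and 15.4% beyond. Wider progenitor peaks were found again more often, from 1.39% (1.21 to 1.60) of those of 130 to under 150 bp to 8.26% (7.43 to 9.17) of those of 400 bp or more. Wider peaks have more bases that can be overlapped, which was not adjusted for here. By chromosome the share of E13.5 peaks in common ran from 15.3% on chromosome 12 to 28.3% on chromosome 8, leaving aside chromosome Y with 1 E13.5 peak.

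**Figure D1:**
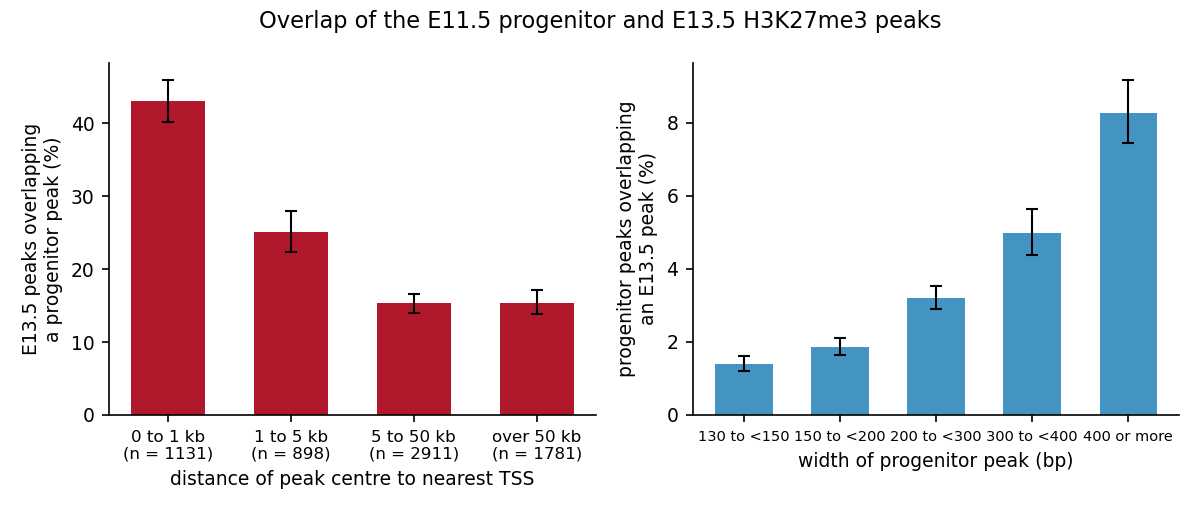
Left, the share of E13.5 H3K27me3 peaks that overlap a progenitor peak (%), by distance of the peak centre to the nearest TSS; right, the share of progenitor peaks that overlap an E13.5 peak (%), by progenitor peak width in bp. Bars are shares and lines are Wilson 95% intervals; the share at 0 to 1 kb (43.1%) stands above the 3 other distances, and the share at right climbs from 1.39% to 8.26%.

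At the level of genes the lists met more often. Progenitor H3K27me3 lay at 10565 of 21938 TSS (48.2%) and E13.5 H3K27me3 at 2043 (9.31%). Both lists marked 1525 TSS (6.95%), 9040 were marked in progenitors only (41.2%) and 518 at E13.5 only (2.36%). So 14.4% (13.8 to 15.1) of progenitor-marked TSS were marked again at E13.5, and 74.6% of E13.5-marked TSS had a mark in progenitors. At 712 of the 1525 TSS in both lists (46.7%, 44.2 to 49.2) a peak of one list overlapped a peak of the other, and at the rest the marks lay at different sites within 5 kb. Most TSS in both lists rested on little: 86.8% had a single E13.5 peak.

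Homeodomain genes stood out among the TSS in both lists. The name covers whole families here, with the Eya partners and the paired box genes that lack a full homeodomain. The families Hox, Dlx, LIM, Nkx, Pax, Irx, sine oculis with the Eya partners, TALE, POU, Cut and the other Antennapedia and paired types together held 193 genes. Of these, 144 (74.6%, 68.0 to 80.2) were marked in progenitors and 88 (45.6%, 38.7 to 52.6) at E13.5, against 48.2% and 9.31% of all TSS. Of the 144, 67 were also marked at E13.5 (46.5%, 38.6 to 54.7), against 14.4% of all progenitor-marked TSS. The 67 TSS drew on 98 distinct E13.5 peaks and 136 distinct progenitor peaks, since neighbours can share a peak, and 41 of the 67 had a single E13.5 peak. The summed width of their E13.5 peaks ran from 116 to 880 bp with a median of 231 bp, and that of their progenitor peaks from 131 to 1407 bp with a median of 446 bp. At 40 of the 67 (59.7%, 47.7 to 70.6) peaks of the 2 lists overlapped. Without the Hox genes the share in both lists was 44.0%, or 51 of 116.

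The Iroquois factors, which pattern the neural tube, heart and limb, had most of their members in both lists. Irx1, Irx2, Irx3, Irx5 and Irx6 were in both lists, 5 of the 6 members, and Irx4 was in progenitors only. Irx2 had 4 progenitor peaks that summed to 861 bp and 4 E13.5 peaks that summed to 880 bp. Irx3 had 3 progenitor peaks (735 bp) and 4 E13.5 peaks (724 bp), so both genes were covered to nearly the same extent in the long and the short list. Irx1 had 2 peaks in each list (532 and 527 bp). Of the paired box genes, Pax1, Pax2, Pax5 and Pax7 were in both lists and Pax9 in progenitors only. Pax6 and Pax8 were marked at E13.5 only, each by 1 peak, of 123 bp and 204 bp. With a TSS window of 1 kb in place of 5 kb, 0 of 2 progenitor-marked Pax genes were in both lists, and 3 of 5 Irx genes.

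Nkx genes, factors of the ventral neural tube, heart and gut, were in both lists in 7 of 13 progenitor-marked cases, but in 1 of 8 (12.5%) with a window of 1 kb. Nkx2-1 had 3 progenitor peaks (1065 bp) and 1 E13.5 peak (197 bp). Nkx2-2, of the ventral neural tube, had 2 progenitor peaks and 0 at E13.5. Of the sine oculis factors and their Eya partners, 5 of 9 were in both lists, among them Six2, Six3, Six4 and Eya2. The other Antennapedia and paired types had 25 of 46 in both lists, and 8 more at E13.5 only. Gsx1 of the ventral forebrain had 1 progenitor peak of 529 bp and 3 E13.5 peaks of 506 bp in sum. Hmx1 had 3 peaks in each list, Vax1 and Vax2 of the optic region 2 in each, and Emx2, a factor of the dorsal cortex, 2 and 1. Barhl1, Cdx4, Dbx1, Dmbx1, Hhex, Otx1 and Pitx3 were among the 8 at E13.5 only.

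Not every homeodomain family followed. LIM homeodomain genes, several of them used in the cortex and in CR cells, were marked in progenitors in 10 of 12 cases and in both lists in 1, Lmx1b. Lhx1, Lhx2, Lhx5, Lhx6, Lhx9 and Isl1 were in progenitors only. Of the Dlx genes, factors of GABAergic neurons, 1 of 5 progenitor-marked members was in both lists (Dlx6), and Dlx1 and Dlx2 were in progenitors only. The TALE cofactors, which include Meis, Pbx and Tgif genes, had 0 of 8 in both lists, POU genes 2 of 9 (Pou3f1 and Pou3f3) and Cut genes 1 of 5 (Onecut3, with 6 progenitor and 3 E13.5 peaks). These families are small, and the interval for LIM (1.79 to 40.4%), for Dlx (3.62 to 62.4%) and for TALE (0 to 32.4%) spans the 14.4% of all genes. The LIM share went above that of all genes with a window of 10 kb, at 3 of 11 (27.3%) against 19.4%.

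**Figure D2:**
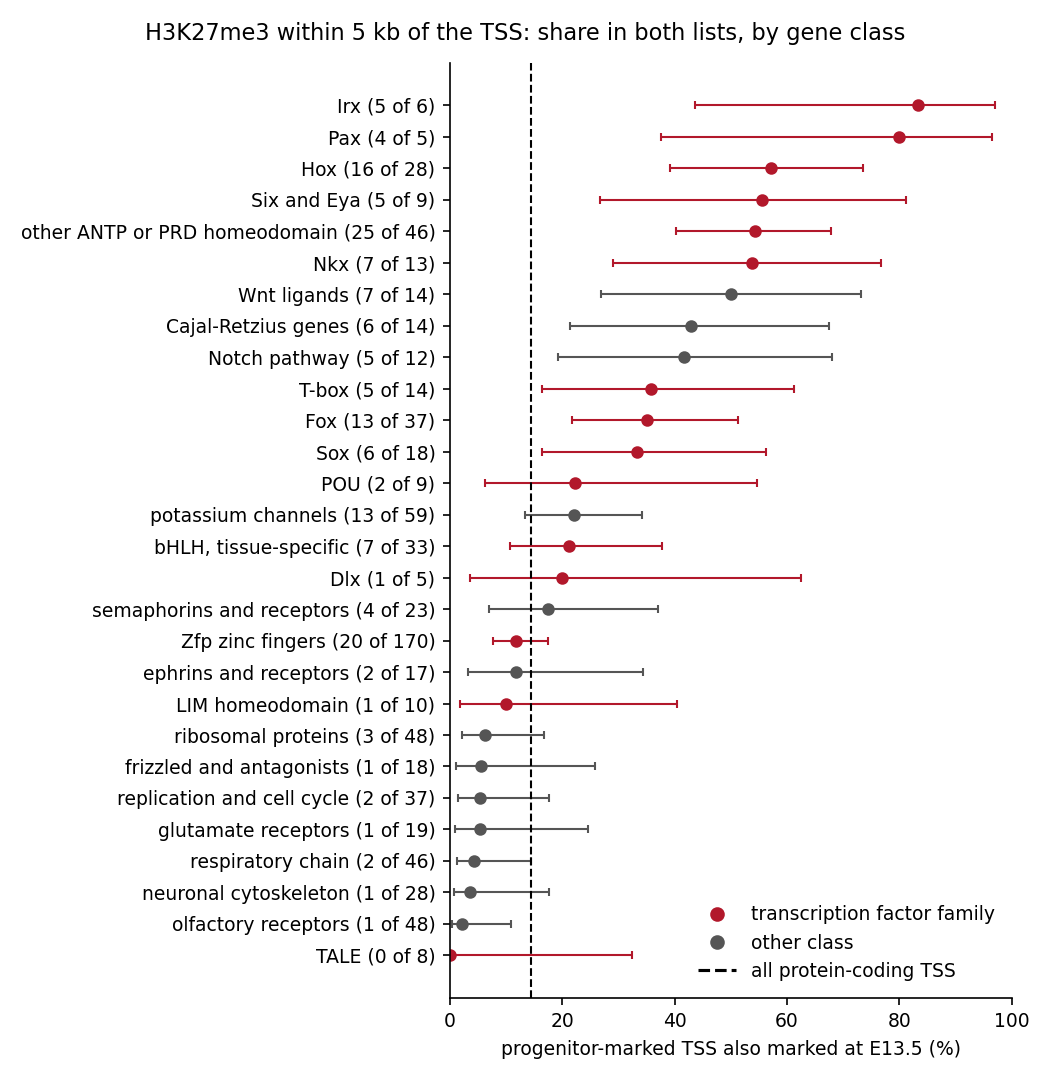
Share of progenitor-marked TSS that were also marked by H3K27me3 at E13.5 (%), for selected gene classes out of 82, with Wilson 95% intervals over genes. Counts stand beside each class and the dashed line is the 14.4% of all protein-coding genes. Red points are transcription factor families and grey points other classes. Among the classes drawn, Irx (83.3%), Pax and Hox (57.1%) lie at the top and olfactory receptors and TALE at the bottom (2.08% and 0%). Classes not drawn reach as high (Smad, 4 of 7) and as low (Tead, Runx, Mef2 and Srf, 0 of 9).

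The 4 Hox clusters, whose genes specify position along the body axis and are not used in the forebrain, held 39 genes. Of these, 28 were marked in progenitors, 24 at E13.5 and 16 in both, so 57.1% (39.1 to 73.5) of the progenitor-marked genes were found again. The 39 TSS lie close together and drew on 44 distinct progenitor peaks and 25 distinct E13.5 peaks, 10 of which overlapped. The clusters differed in pattern. In Hoxa on chromosome 6, 7 of 11 genes were in both lists and 4 in progenitors only. Hoxa5 and Hoxa6 had 8 and 7 progenitor peaks, summed to 2519 and 2323 bp, and 0 at E13.5, while Hoxa2 (5 and 1), Hoxa4 (3 and 1) and Hoxa9 (3 and 2) had peaks in both. In Hoxb on chromosome 11 the reverse held, with 5 of 10 genes at E13.5 only, 2 in both and 1 in progenitors only. Hoxb2 had 1 progenitor peak and 3 E13.5 peaks. Hoxc on chromosome 15 had 3 of 9 genes in both, and Hoxd on chromosome 2 had 4 of 9. Hoxa2 to Hoxa6 stood apart in the other lists too. They carried 2 to 14 H3K27me3 peaks each at E15.5, where 1.06% of all TSS were marked, and lay under a single E15.5 H3K27ac peak of 63794 bp, while the widest E13.5 H3K27ac peak there was 10343 bp. The part of that signal in the Hoxa counts was not tested, and the homeodomain share without Hox genes is given above.

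**Figure D3:**
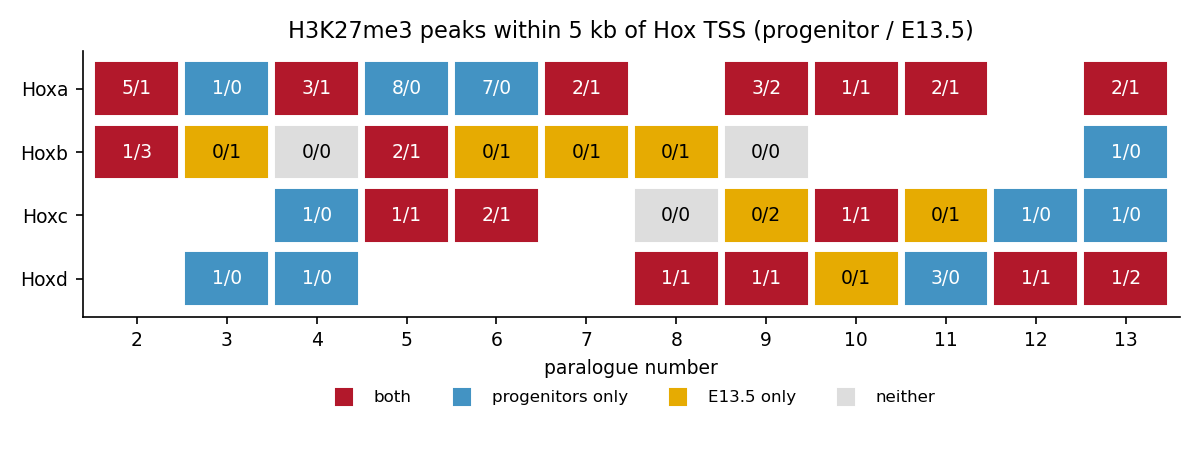
Hox genes of paralogue numbers 2 to 13 (columns) by cluster (rows), coloured by the list or lists with an H3K27me3 peak within 5 kb of the TSS. Numbers are progenitor peaks / E13.5 peaks; Hoxa5 (8/0) and Hoxa6 (7/0) have the most progenitor peaks, and yellow cells, marked at E13.5 only, stand in Hoxb, Hoxc and Hoxd but not in Hoxa.

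Other transcription factors took a middle place. Leaving out the homeodomain families, 123 of 538 progenitor-marked factor genes were in both lists (22.9%, 19.5 to 26.6). Forkhead genes had 13 of 37 (35.1%, 21.8 to 51.2). These included Foxc1 (3 peaks in each list) and Foxc2 and Foxd1, all used in the mesenchyme that forms the meninges, and Foxf1 of the gut mesoderm (4 and 3). Of T-box genes 5 of 14 were in both lists (Tbx1, Tbx2, Tbx4, Tbx10 and Tbx21), and the 9 in progenitors only included the cortical Tbr1 and Eomes and also Tbx3, Tbx5 and Tbx18. Of the Sox genes, Sox8, Sox10, Sox13, Sox14, Sox17 and Sox18 were in both lists and Sox1, Sox2, Sox3, Sox4 and Sox11 were among the 12 in progenitors only. Of the tissue-specific bHLH genes 7 of 33 (21.2%, 10.7 to 37.8) were in both lists, namely Olig1 and Olig2 of oligodendrocytes, Myod1 of muscle, Neurod6 of cortical neurons, Scx, Tcf15 and Twist2. The 26 in progenitors only included Neurog1, Neurog2, Neurod2 and Nhlh2, all active in neurogenesis, and the muscle genes Myf5, Myf6 and Myog, and Neurod1 was at E13.5 only with 1 peak of 219 bp. Of Zfp zinc finger genes 20 of 170 (11.8%, 7.75 to 17.5) were in both lists. Genes in no transcription factor family had 1335 of 9883 (12.8 to 14.2%).

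Signalling genes covered a wide range of shares around the 14.4% of all genes. Of the Wnt ligands 7 of 14 were in both lists (26.8 to 73.2%), namely Wnt1, Wnt3a, Wnt4, Wnt6, Wnt7b, Wnt10b and Wnt11, and Wnt7a and Wnt16 were at E13.5 only. Wnt10b had 5 progenitor peaks (1172 bp) and 4 E13.5 peaks (686 bp), Wnt1 had 4 and 2, and Wnt3a, a ligand of the cortical hem, 2 and 2. Of the Frizzled receptors and secreted Wnt antagonists 1 of 18 was in both lists (5.56%, 0.988 to 25.8), namely Fzd8. Of the FGF ligands 2 of 11 were in both lists (18.2%, 5.14 to 47.7), Fgf3 and Fgf8, and of the Hedgehog pathway 2 of 7, Cdon and Dhh, with Shh in progenitors only. In the Notch pathway 5 of 12 were in both lists, the ligands Dll1, Dll4 and Jag2, the receptor Notch3 and the glycosyltransferase Mfng, and Notch1 was in progenitors only. Among the BMP and TGF-beta ligands 6 of 19 were in both lists, with Gdf7 of the roof plate at 2 peaks in each. Smad1, Smad2, Smad4 and Smad7, which carry or restrain these signals inside the cell, were in both lists out of 7 marked members. Of the Slit, Robo, netrin and Unc5 guidance genes 5 of 13 were in both lists (Ntn1, Ntn4, Slit1, Unc5a and Unc5b), of the semaphorins, plexins and neuropilins 4 of 23 and of the ephrins and their receptors 2 of 17. Polycomb and trithorax genes had 8 of 26 in both lists. The PRC1 reader gene Cbx8 (7 progenitor peaks, 1 at E13.5) was among them, and Ezh2 and Suz12 were in progenitors only.

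Genes of the cells themselves gave small counts. Of 18 CR genes that the study names, 14 were marked in progenitors (77.8%, 54.8 to 91.0, against 48.2% of all TSS) and 6 at E13.5 (33.3%, 16.3 to 56.3, against 9.31%). Each of the 6 was in both lists, so 42.9% (21.4 to 67.4) of the 14 were marked again at E13.5, against 14.4% of all progenitor-marked TSS. Of the CR genes marked at E13.5, all were thus also marked in progenitors (61.0 to 100%), and this interval holds the 74.6% of all E13.5-marked TSS. The list was drawn up by the study partly from these cell groups, so it is not independent of them. Ebf2 itself had 1 progenitor peak of 183 bp and 1 E13.5 peak of 184 bp, which did not overlap. Ebf3 had 5 progenitor peaks (931 bp) and 2 at E13.5 (381 bp). Trp73, a p53 family gene and marker of hem-derived CR cells, had 2 and 1, B3gat1 and Slit1 1 and 1, and Ppp2r2c 2 and 2. Tbr1, Lhx1, Lhx5, Nhlh2, Cdkn1a, Brinp1, Jph3 and Sncb were in progenitors only, and Reln and Calb2 were in neither list. H3K27ac at E13.5 lay at 16 of the 18 (88.9%, 67.2 to 96.9), including Ebf2, Ebf3 and Trp73, against 60.9% of all TSS and 93.2% of all TSS in both lists. Of the 9 progenitor genes marked in progenitors, 1 was in both lists, Emx2 (11.1%, 1.99 to 43.5, near the 14.4% of all genes). Markers of some other cell types were also present in both lists, against 6.95% of all TSS. Olig1, Olig2 and Sox10 were so of 9 glial genes (12.1 to 64.6%). Foxc1, Foxc2 and Foxd1 were so of 10 meningeal genes (10.8 to 60.3%), and Dlx6 and Slc32a1 of 10 interneuron genes (5.67 to 51.0%). Of 10 microglia genes and of 10 preplate and subplate genes, 0 were in both lists (0 to 27.8% each). Of 9 vessel genes and of 9 red cell genes it was also 0 (0 to 29.9% each). The part of cells other than neurons and progenitors in these marks was not tested.

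Growth and housekeeping genes as a group lay below all genes. Ribosomal proteins, the proteasome, the respiratory chain, translation initiation, replication and reference genes together held 412 genes. Of these, 235 were marked in progenitors (57.0%, 52.2 to 61.7, against 48.2% of all TSS), and 20 of the 235 were also marked at E13.5 (8.51%, 5.58 to 12.8, against 14.4%). The respiratory chain had 2 of 46 (Uqcrfs1 and Uqcrh), replication and cell cycle 2 of 37 (Cdk4 and Cdt1) and cytosolic ribosomal proteins 3 of 48. Translation initiation factors had 3 of 26 and mitochondrial ribosomal proteins 5 of 42 (11.9%), while proteasome subunits, at 5 of 27 (18.5%, 8.18 to 36.7), lay above the 14.4% of all genes. The clustered histone genes, not counted in this group, had 3 of 57. Of genes of neuronal function, such as channels, receptors, vesicle release and cytoskeleton, 27 of 164 were in both lists (16.5%, 11.6 to 22.9). Potassium channels had 13 of 59, glutamate receptors 1 of 19 (Grik3) and the neuronal cytoskeleton 1 of 28 (Tubgcp2). Olfactory receptors were rarely marked at all, 48 of 1093 in progenitors, and 1 of the 48 again at E13.5.

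The share found again grew with the number of progenitor peaks near a TSS. Over all genes it was 11.3% (10.6 to 12.1) with 1 peak, 16.6% (15.2 to 18.1) with 2, 26.1% (23.2 to 29.3) with 3 and 34.9% (29.9 to 40.2) with 4 or more. Homeodomain genes lay above this at each number, at 43.3% (32.1 to 55.2) with 1 peak, 41.9% with 2, 52.6% with 3 and 66.7% with 4 or more. Growth and housekeeping genes with 1 peak gave 6.33% (3.47 to 11.3). The CpG content of the promoter, taken over 500 bp on each side of the TSS, moved the share over all genes little. With the progenitor-marked TSS cut into 4 equal bins of rising CpG ratio it was 14.2%, 15.4%, 14.2% and 13.9%. Homeodomain genes again lay above it in each bin, at 33.3% (5 of 15), 48.4% (31 of 64), 41.2% (14 of 34) and 54.8% (17 of 31).

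**Figure D4:**
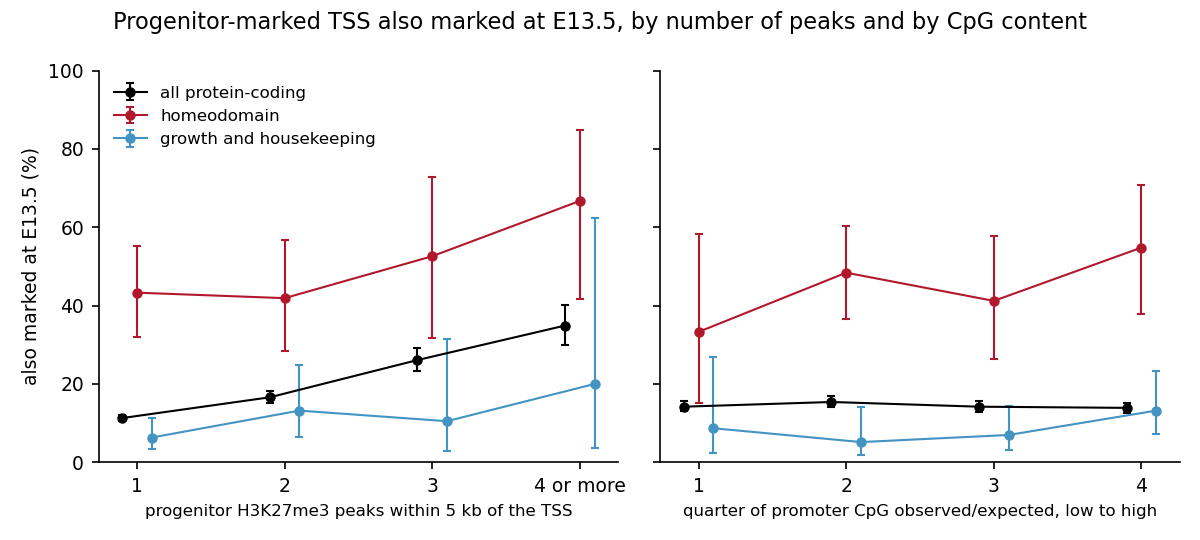
Share of progenitor-marked TSS also marked at E13.5 (%), with Wilson 95% intervals, by number of progenitor H3K27me3 peaks within 5 kb (left) and by bin of the promoter CpG ratio (right), for all protein-coding, homeodomain and growth and housekeeping genes. Homeodomain points lie above those of all genes in all 8 bins; the line of all genes climbs from 11.3% to 34.9% at left and stays between 13.9% and 15.4% at right.

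The TSS marked at E13.5 only were fewer and less CpG-rich. Their median CpG ratio was 0.586, against 0.699 for TSS in both lists, 0.706 in progenitors only and 0.290 in neither. A single peak marked 96.3% of them, and a progenitor peak lay within 10 kb of 32.4% and within 20 kb of 62.9%. Homeodomain genes made up 21 of the 518, out of 193 in the genome annotation, and all transcription factor families 49, out of 1100. These were 10.9% (7.23 to 16.1) and 4.45% (3.39 to 5.84) of the members, against 2.36% of all TSS. Homeodomain genes thus exceeded the share of all TSS in this group too, not only among TSS in both lists. By summed peak width the first 10 were Tcfl5 (2 peaks, 585 bp), Rnf213 (1 peak, 560 bp), Dbx1 (3 peaks, 538 bp), Ftcd, Galnt2, Samd11, Myocd, Slc16a11, Mpp3 and Fndc1. Dbx1 was the only homeodomain gene of these 10.

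The other deposited lists were not used to form the groups. H3K27ac of the same E13.5 cells lay at 93.2% (91.9 to 94.4) of TSS in both lists, 80.3% of those in progenitors only, 80.7% of those at E13.5 only and 39.3% of those in neither, against 60.9% of all TSS. The marks met at the same bases as well. Of the shared E13.5 H3K27me3 peaks 69.1% overlapped an E13.5 H3K27ac peak, and of the E13.5-only peaks 30.1%, against 38.4% of all E13.5 H3K27me3 peaks. The shared peaks also lay closer to a TSS, which was not adjusted for here. The antibodies were applied to separate portions of a mixed population, so marks on the same allele and marks in different cells cannot be told apart. With all peaks that overlapped H3K27ac of the same cell group set aside, 39 of 143 progenitor-marked homeodomain TSS (27.3%) and 719 of 10227 of all (7.03%) were also marked at E13.5. This step was uneven, as the H3K27ac lists held 1386 peaks for progenitors and 102877 at E13.5. It left 48240 of 48962 progenitor peaks and 4139 of 6721 E13.5 peaks. H3K27ac of E11.5 Ebf2-EGFP+ cells lay at 77.4% of TSS in both lists (49.9% of all TSS), that of E15.5 at 70.7% (52.3%) and that of E11.5 Ebf2-EGFP- cells at 8.13% (4.17%).

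At the homeodomain genes these values parted from those of all genes by stage. Of the 144 progenitor-marked homeodomain TSS, 133 (92.4%, 86.8 to 95.7) had H3K27ac at E13.5, against 82.2% of all progenitor-marked TSS. At E15.5 it was 67 (46.5%, 38.6 to 54.7) against 7717 of the 10565 (72.2 to 73.9%), and of the 67 homeodomain TSS in both H3K27me3 lists 25 (37.3%, 26.7 to 49.3) had H3K27ac at E15.5 against 70.7% of all TSS in both lists. Growth and housekeeping TSS marked in progenitors had H3K27ac at E15.5 in 91.9% (87.7 to 94.8). In the H3K27me3 list of E11.5 Ebf2-EGFP+ cells, of about the length of the E13.5 list, 10 of the 144 homeodomain TSS (6.94%, 3.82 to 12.3) were marked, against 7.23% of all progenitor-marked TSS. That list marked 4.92% of all TSS and 10.5% (9.05 to 12.1) of those in both lists. In the E15.5 H3K27me3 list it was 9 of 144 (6.25%) against 1.58%, and without the Hox genes 2 of 116 (1.72%, 0.474 to 6.07), so that the difference rested on the Hox genes. All these comparisons share the progenitor list. Only 9 TSS were marked in all 4 H3K27me3 lists, the FGF ligand gene Fgf3 among them.

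**Figure D5:**
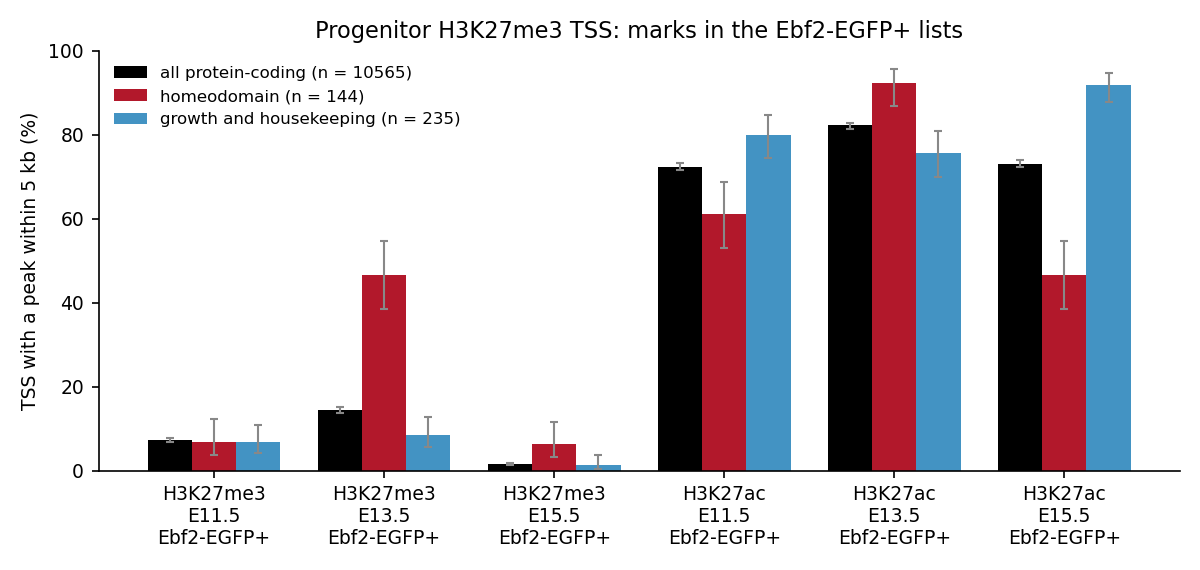
Share of progenitor H3K27me3-marked TSS with a peak within 5 kb in each Ebf2-EGFP+ list (%), for all protein-coding (n = 10565), homeodomain (n = 144) and growth and housekeeping genes (n = 235). Lines are Wilson 95% intervals; the homeodomain bar stands above the others for H3K27me3 at E13.5 (46.5% against 14.4% and 8.51%) and below them for H3K27ac at E15.5 (46.5%, against 91.9% of growth and housekeeping TSS).

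The densest window of sites in common lay in repeats, but not every dense window did. The 10 TSS in both lists with the widest summed marks were predicted genes, 8 of them (Gm10717 to Gm10722, Gm11168 and Gm17535) in a 50 kb window at the start of the chromosome 9 assembly and the others Gm10800 and Gm10801 on chromosome 2. That window held 45 E13.5 peaks, of which 43 were shared, and 49 progenitor peaks, and the median E13.5 peak there was repeat sequence over 100% of its length. Reads from near-identical copies cannot be placed with certainty, so these genes are uncertain. A 50 kb window on chromosome 1 from 171050000 held 18 E13.5 peaks, 17 of them shared, with a median repeat share of 0.117%. One on chromosome 6 from 47650000 held 6, all shared, with a median of 0%. A repeat filter does not remove such windows. Setting aside all peaks with at least 50% repeat bases left the homeodomain share at 46.5% and that of all genes at 14.4%. In progenitors only, the first 10 by summed width were Hoxa5, Hoxa6, Rbm15b, Ocel1 and 6 genes of chromosome 4, Gm13276, Gm13277, Gm13278, Gm13287, Gm13288 and Ifnz.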

How the data were processed

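Cells of Tg(Ebf2-EGFP)FB58Gsat cortex were sorted by FACS, cross-linked and precipitated with an antibody to H3K27me3, in 2 ChIP libraries per group. Reads were aligned with Bowtie 1.1.2 to mm10, per the submitters' processing notes, and peaks were called with MACS, per the study's methods. The MACS version, the control used and whether the replicate libraries were pooled are not given in the sources used here. The lists hold coordinates and a deposited score that the authors left at 0 for every peak, so peak height could not be used.

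From these lists the overlap of peaks (at least 1 bp) and the peaks within 5 kb of the 5′ end of each protein-coding gene (GENCODE annotation, GRCm38, same build) were counted, with 1 mitochondrial progenitor peak left out. Shares carry Wilson 95% intervals for counting error only. With 1 list per group no test was run. The code was tested on simulated data (Python 3.11.15, numpy 2.4.6, pandas 2.3.3, scipy 1.17.1, pysam 0.24.0, samtools 1.23.1, matplotlib 3.10.9). Members and gene lists were chosen with earlier results of these data known. Named genes are members of those lists, or the 10 genes with the greatest summed peak width in each group. Alternatives were other windows, starts, overlaps, widths, list lengths and chromosomes, and peaks off H3K27ac or off repeats. A few genes of these lists are not reported here by name.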

Additional observations from a re-analysis of the deposited data

How the results depend on the processing

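The homeodomain share was 2.44 to 3.96 times that of all genes in every setting, and the growth and housekeeping share lay below that of all genes in each. Of 24 classes and class groups, 18 stayed on 1 side of the all-gene share and 6 crossed it: LIM and progenitor genes went above with 10 kb, any start and without H3K27ac; neuronal function genes went below with the widest (16.4%) and every 7th peak, Pax at 1 kb, Sox without H3K27ac, and bHLH genes without H3K27ac, at 200 bp, with the widest and with every 7th. Most sizes moved. Of E13.5 peaks, 21.3% were shared, which became 8.88% with a reciprocal overlap of 50%, 7.41% with the widest progenitor peaks (as many as the E13.5 list holds), 3.01% with every 7th progenitor peak, 27.7% with peaks of at least 200 bp and 20.1% with peaks under 50% repeat. Of progenitor peaks (2.87%) the share was 1.22% with reciprocal overlap, 3.03% with peaks merged within 1 kb, 6.99% with the widest, 1.65% at 200 bp and 3.05% off repeats. TSS in both lists (1525) numbered 776 with a window of 1 kb, 2433 with 10 kb, 2383 with any transcript start, 566 with the widest, 394 with every 7th, 339 at 200 bp and 719 without peaks on H3K27ac. TSS in progenitors only numbered 2517 with the widest and 1832 with every 7th, and those at E13.5 only 1477, 1649, 209 at 200 bp and 325 without H3K27ac. The homeodomain share (46.5%) was 28.2% at 1 kb, 59.5% at 10 kb, 19.1% at 200 bp and 27.3% without H3K27ac. The share of all genes (14.4%) was 9.77%, 19.4%, 4.82% and 7.03% there, 19.7% with any start, 18.4% with the widest and 17.7% with every 7th. Fewer or shorter peaks leave fewer overlaps by construction. The repeat and Hox settings and, for gene classes, 10 kb, any start, 200 bp and autosomes were chosen after seeing the data. The alternative on peak score was not run, since every score is 0. No paired analysis was possible because each group has 1 peak list with no replicate columns, which also bars leaving out a replicate. Read depth is unknown, so a TSS missing from the short E13.5 list is not shown to lack the mark.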
